A study of Mus musculus with 4 samples.

Results

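The genes of the major histocompatibility complex (MHC) were followed across the cell classes of mouse retina and choroid. They comprise every gene whose symbol starts with H2- in the deposited matrix, together with B2m, Cd74, Tap1, Tap2, Tapbp, Psmb8, Psmb9 and Nlrc5. This gave 33 genes of the 24783 in the matrix. By role they are 15 class I heavy chains, the light chain B2m, 5 genes of class I peptide supply, the class I activator Nlrc5, 5 genes of the class II chains with the invariant chain Cd74, and 5 genes of class II peptide loading. H2-Ke6 lies in the same region but encodes no MHC chain, so it was counted as a member and entered no sum. In the GRCm38 annotation 30 members lie on chromosome 17, and the others are Cd74 on chromosome 18, B2m on chromosome 2 and Nlrc5 on chromosome 8.

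MHC class I molecules sit on most nucleated cells and show peptides from inside the cell to CD8 T cells. Each pairs a heavy chain such as H2-K1 or H2-D1 with B2m. The immunoproteasome subunits Psmb8 and Psmb9 cut the peptides, the transporter Tap1/Tap2 carries them into the endoplasmic reticulum, and Tapbp (tapasin) helps to load them. Natural killer cells read the same molecules through inhibitory receptors. Class II molecules, built from H2-Aa with H2-Ab1 and from H2-Eb1, are made chiefly by dendritic cells, B cells and some macrophages, and present peptides from the outside to CD4 T cells. Cd74 occupies their groove until H2-DMa and H2-DMb1 exchange it for peptide. Nlrc5 and Ciita are the activators of the class I and class II genes, and interferon gamma induces both. The neural retina is known for low MHC expression in the resting state.

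The study compared wild-type mice of 6 to 8 weeks with mice over 18 months old, without treatment or after laser photocoagulation. Laser burns of this kind rupture Bruch's membrane and are used as a model of choroidal neovascularization (CNV). The series text places the lasered tissue at day 3. Retina and choroid-sclera were dissociated apart, retinal cells were depleted of rods through CD73, and both suspensions were mixed. Each of the 4 groups (young control, young laser, aged control, aged laser) was 1 droplet library. The cell names mark the young libraries plainly, and the cells with the other prefix were read as the aged libraries by elimination, which no label spells out. Neither the strain nor the number of animals in a library is given in the sources used here. There is thus no replicate check on any difference, no test between groups was possible, and all intervals cover counting error only.

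The libraries held 6676 to 11427 cell barcodes and 50848238 to 111908519 unique molecular identifiers (UMIs, counted transcript molecules). Between 53 and 71 barcodes of each library also occurred in another. After removal of likely doublets 35590 of 36701 cells were clustered without the MHC genes. Clusters were named from other markers, so that names such as rod-like rest on markers and not on sorted cells, and 14 of 64 clusters with 4655 cells stayed unnamed. MHC genes took 0.344% of UMIs in the young control, 0.705% in the young laser, 0.181% in the aged control and 0.280% in the aged laser library. Levels below are UMIs of a gene or sum scaled to the total UMIs of the same cell class and library (counts per 1000000, CPM). A difference was called where the ratio of 2 libraries was at least 2-fold, its exact 95% interval excluded 1, and the gene had at least 20 UMIs over both, in classes of 50 or more cells. A gene scarce in 1 library meets this minimum only where the other is high, so counts of called members depend in part on it. In such a mixture a higher level on this scale cannot be told apart from fewer other transcripts per cell.

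Promoter sequences show how the 2 gene classes share upstream letters. These 6 are printed because the results below turn on these genes: B2m, H2-K1, H2-D1 and H2-T23 of class I, and H2-Aa and H2-Eb1 of class II. Each is the 200 bases before the RefSeq transcript start, 5′ to 3′ on the gene's strand, in GRCm38.p6. Capitals mark matches on either strand to the Y box ATTGG, the interferon-stimulated response element (GAAA, any 2 bases, GAAA), the gamma-activated site TTCNNNGAA, the kB site (GGGA, any 4 bases, CC) and the X box core AGNNACNGA. Neighbouring matches can overlap.
B2m, chr2:122147487-122147686, plus strand: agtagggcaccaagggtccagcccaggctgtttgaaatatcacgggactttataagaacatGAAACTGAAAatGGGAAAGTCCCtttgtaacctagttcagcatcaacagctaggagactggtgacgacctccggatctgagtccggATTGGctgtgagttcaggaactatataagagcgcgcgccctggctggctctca
H2-K1, chr17:34000348-34000547, minus strand: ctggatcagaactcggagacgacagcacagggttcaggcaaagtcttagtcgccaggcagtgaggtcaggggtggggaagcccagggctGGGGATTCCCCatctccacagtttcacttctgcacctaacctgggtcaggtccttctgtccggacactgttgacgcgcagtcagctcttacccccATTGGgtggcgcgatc
H2-D1, chr17:35262894-35263093, plus strand: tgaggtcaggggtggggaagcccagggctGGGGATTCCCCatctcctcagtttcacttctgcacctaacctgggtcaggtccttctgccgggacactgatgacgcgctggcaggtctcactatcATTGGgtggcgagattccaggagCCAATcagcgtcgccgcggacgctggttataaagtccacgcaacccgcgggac
H2-T23, chr17:36032702-36032901, minus strand: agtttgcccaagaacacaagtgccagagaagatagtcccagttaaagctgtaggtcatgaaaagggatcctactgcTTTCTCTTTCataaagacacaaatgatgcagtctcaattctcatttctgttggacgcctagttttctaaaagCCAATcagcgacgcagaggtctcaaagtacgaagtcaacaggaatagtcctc
H2-Aa, chr17:34287824-34288023, minus strand: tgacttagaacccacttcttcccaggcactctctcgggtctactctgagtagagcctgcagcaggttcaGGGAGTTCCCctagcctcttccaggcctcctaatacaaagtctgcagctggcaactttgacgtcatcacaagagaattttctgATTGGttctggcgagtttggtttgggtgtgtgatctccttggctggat
H2-Eb1, chr17:34305667-34305866, plus strand: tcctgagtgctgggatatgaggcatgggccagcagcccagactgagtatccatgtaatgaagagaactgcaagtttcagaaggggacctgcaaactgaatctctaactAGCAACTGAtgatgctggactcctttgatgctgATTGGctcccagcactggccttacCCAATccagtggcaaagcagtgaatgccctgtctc

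In these 6 windows a Y box lay 53 bases before the start in B2m, 16 in H2-K1, 52 in H2-T23 and 48 in H2-Aa, while H2-D1 (76 and 53) and H2-Eb1 (59 and 35) had 2 each. A match to the response element lay at 139 in B2m and at 124 in H2-T23. H2-K1 and H2-D1 had no exact match in the window. Variants of its letters were not searched, so an element in H2-K1 or H2-D1 can have been missed. Over the 300-base windows that RefSeq gave for 27 of the 33 members, the Y box was found in 23, the kB site in 12, the X box core in 10, and the interferon-stimulated response element and the gamma-activated site in 3 each, counting for each gene the promoter listed first. H2-DMa had no Y box in its first promoter and 1 in its other promoter. Among all 27025 first promoters of the same length the shares were 37.9%, 20.5%, 17.6%, 3.49% and 8.47%. The 3 members with an exact match to the response element were B2m, H2-T22 and H2-T23. A match is a run of letters and not a measured binding site.

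Class I transcripts were higher after laser in the neural retina and in the retinal pigment epithelium (RPE), the cell layer that nourishes the photoreceptors. The largest ratios of the summed heavy chains were in Müller glia-like cells in the young mice and in rod-like cells in the aged mice. In endothelial-like and fibroblast-like cells at both ages, and in aged T-like cells, the sums of the lasered and control libraries lay within 1.34-fold of each other. The question here is which cells carried more class I message 3 days after injury, and whether young and aged tissue did so alike.

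**Figure D1:**
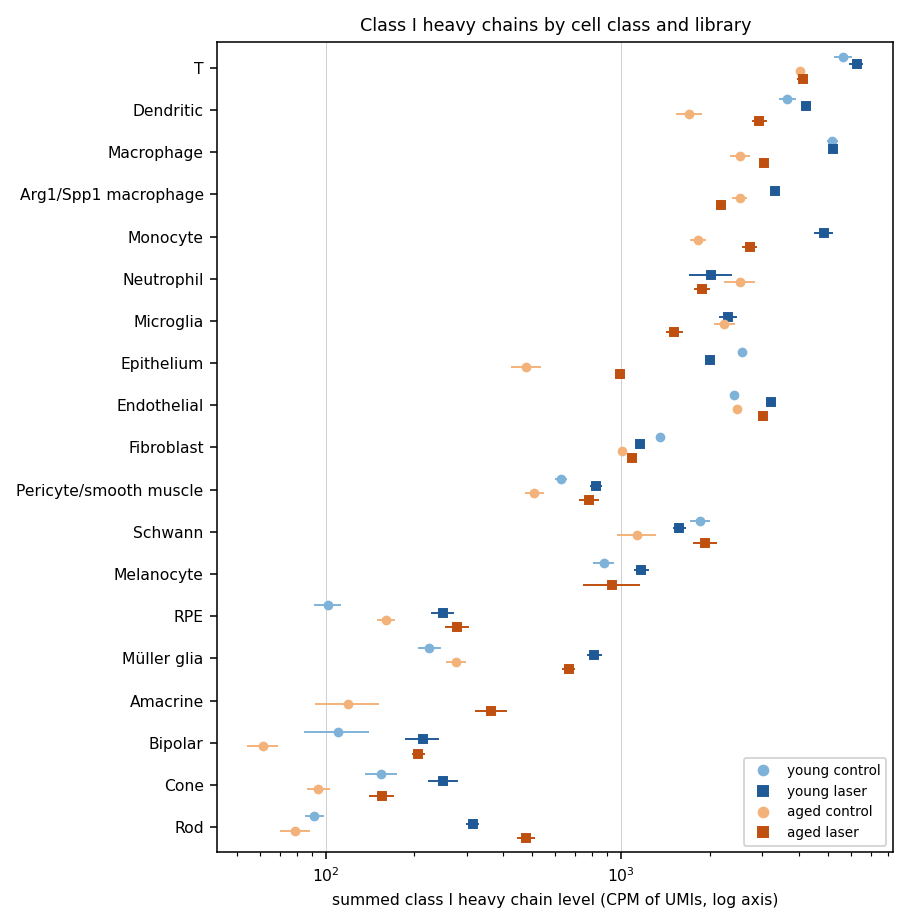
Summed class I heavy chains, in CPM on a log axis, for each cell class with 20 or more cells in the library. Circles are controls, squares are laser libraries, blue is young and orange is aged, and bars are exact Poisson 95% intervals. Rod-like cells lie at 91.6 and 79.0 CPM in the controls and at 315 and 478 CPM after laser, while endothelial-like cells lie between 2415 and 3228 CPM in all 4 libraries.

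In young mice the summed heavy chains were higher after laser in 8 of 13 cell classes and lower in 3, with the intervals of the other 2 spanning 1. In aged mice they were higher in 10 of 11 classes and lower in 0, and the interval of the T-like cells spanned 1. Müller glia-like cells stood at 225 CPM in the young control, 813 in the young laser, 277 in the aged control and 665 in the aged laser library. The ratio was 3.62 (95% interval 3.29–3.99) in young and 2.40 (2.21–2.60) in aged mice. Rod-like cells stood at 91.6, 315, 79.0 and 478 CPM in the same order. Their ratio was 3.44 (3.17–3.72) in young and 6.05 (5.33–6.87) in aged mice. Both lasered libraries thus lay above both controls in either class. The difference between the ages was not tested, since each ratio rests on 1 library per group.

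RPE-like cells had 102, 249, 160 and 280 CPM, giving ratios of 2.44 (2.16–2.77) and 1.75 (1.57–1.94). Bipolar-like cells had 110, 213, 61.3 and 206 CPM, with ratios of 1.94 (1.48–2.57) and 3.36 (2.99–3.8). Cone-like cells had 155, 250, 94.6 and 155 CPM and ratios of 1.62 (1.37–1.91) and 1.64 (1.45–1.85). Amacrine-like cells, with 50 or more cells only in the aged libraries, went from 119 to 364 CPM, a ratio of 3.06 (2.35–4.02). In cone-like cells the aged laser library thus stood where the young control did.

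Outside the retina the direction was mixed. Endothelial-like cells had 2415, 3228, 2474 and 3025 CPM and pericyte- or smooth muscle-like cells 626, 822, 509 and 780 CPM, higher after laser at both ages by less than 2-fold. Fibroblast-like cells had 1354, 1161, 1011 and 1090 CPM, lower after laser in young mice (ratio 0.857, interval 0.840–0.875) and higher in aged mice (1.08, 1.05–1.11). The clusters within this class had unequal shares in the libraries. The cluster led by Piezo2 and Myoc held 14 of 661 fibroblast-like cells in the young control, 244 of 2171 in the young laser and 371 of 626 in the aged control library. Within it the level went from 992 to 869 CPM in aged mice, opposite to the whole class, and in the cluster led by Fmod and Kera it went from 619 to 662 CPM in young mice. Epithelium-like cells of the young mice went from 2563 to 2004 CPM (0.782, 0.768–0.797), and young Schwann-like cells from 1855 to 1573 CPM. Macrophage-like cells had 5192 CPM in the young control and 5232 in the young laser library. T-like cells had 4045 and 4115 CPM in the aged pair.

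Member by member, the Müller glia-like cells carried the change across nearly the whole class I machinery in young mice. Of 14 class I members with enough UMIs, 13 were called higher after laser, against 3.12% of all genes called higher. Their median log2 ratio was 1.73, against -0.087 over all genes tested. In aged mice 6 of 15 were called higher, against 6.7% of all genes, with a median of 0.988 against -0.001.

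Among the heavy chains in Müller glia-like cells, H2-K1, a classical chain, stood at 113, 375, 157 and 423 CPM in young control, young laser, aged control and aged laser. H2-D1, the other classical chain, stood at 68.4, 245, 57.7 and 123 CPM. H2-T23 encodes Qa-1, the chain read by the natural killer receptor NKG2A, and stood at 13.5, 96.9, 17.3 and 33.4 CPM. Its ratio was 7.16 (4.98–10.5) in young and 1.93 (1.37–2.76) in aged mice. H2-Q7, a nonclassical chain, stood at 1.83, 17.4, 6.57 and 12 CPM, and in the young control this rested on 5 UMIs. For H2-T23 the young laser library was the highest of the 4 by a wide margin, while for H2-K1 the aged laser library was highest.

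The partners of the heavy chains moved in the same direction in Müller glia-like cells. B2m stood at 134, 497, 97.2 and 192 CPM, a ratio of 3.72 (3.29–4.22) in young and 1.98 (1.72–2.28) in aged mice. Psmb8, the immunoproteasome subunit, stood at 34.8, 115, 27.7 and 72.8 CPM, and Psmb9 at 12.8, 32.5, 15.6 and 31.0 CPM. Tapbp stood at 38.0, 101, 53.9 and 108 CPM and Tap1 at 13.5, 28.9, 14.9 and 34.0 CPM. Tap2 stood at 36.9, 62.6, 33.2 and 44.2 CPM and was the only tested class I member not called in young mice. Nlrc5 stood at 6.58, 25.3, 17.3 and 20.8 CPM, called in young mice (3.84, 2.16–7.09) and not in aged mice (1.20, 0.823–1.77).

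The Müller glia-like class held 2 clusters. The one led by Aqp4 held most of the cells and had 206, 822, 273 and 662 CPM of heavy chains. The other, led by the injury genes Gfap and Lcn2 and holding 29 to 59 cells per library, had 637, 635, 431 and 748 CPM. In the young pair it was thus as high without laser as with it, and its intervals overlap (501–799 and 470–839 CPM). Macrophage markers in Müller glia-like cells went with the groups: 13, 13, 10 and 13 of the 13 were detected, their sum was 73.5, 206, 59.1 and 144 CPM, and Cd163, Lyve1 and Cbr2 were at 0 in the aged control. Leaving out every cell with a UMI of C1qa, C1qb, C1qc or Ptprc gave heavy chain ratios of 3.44 and 2.31, close to the ratios in all cells. Such a filter drops whole cells and does not take macrophage RNA out of the others, whose part was not tested.

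Rod-like cells had most of their measured class I members higher after laser at both ages. In young mice 14 of 16 class I members were called higher, against 6.72% of all genes called higher, with a median log2 ratio of 1.89 against -0.041 over all genes. In aged mice 12 of 13 were called higher, against 5.53% of all genes, with a median of 2.72 against 0.051. The class held 5807 cells in the young control, 2802 in the young laser, 1196 in the aged control and 740 in the aged laser library. These are the rods left by a depletion step, so their numbers say nothing of rod loss.

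In rod-like cells H2-K1 stood at 24.1, 91.9, 30.8 and 252 CPM in young control, young laser, aged control and aged laser. H2-D1 stood at 47.4, 175, 22.3 and 146 CPM and B2m at 65.5, 208, 22.5 and 57.5 CPM. B2m was thus lower in the aged laser than in the young control library, while H2-K1 and H2-D1 were higher. Cells with an H2-K1 UMI made up 3.96%, 15.4%, 9.53% and 30.3% of rod-like cells. Among rod-like cells with 1000 or more UMIs, each thinned to 1000, they made up 2.50%, 8.32%, 3.24% and 16.7%. The 95% intervals were 2.05 to 3.01%, 7.27 to 9.46%, 2.29 to 4.44% and 14.0 to 19.7%. Cells below that depth were left out of these shares.

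The genes of peptide supply were near 0 in the rod-like cells of both controls. Tap1 stood at 0.909, 11.3, 0.489 and 27.6 CPM, from 9, 69, 2 and 59 UMIs. Psmb9 stood at 2.42, 13.9, 0.734 and 22.9 CPM, and Psmb8 at 5.96, 19.1, 2.94 and 26.7 CPM. Nlrc5 stood at 0.404, 8.67, 0.734 and 25.2 CPM, from 4, 53, 3 and 54 UMIs. The ratio for Nlrc5 was 21.5 (7.91–81.7) in young and 34.4 (11.2–172) in aged mice, and for Tap1 it was 12.4 (6.18–28.3) and 56.4 (14.9–476). The control values of both genes rest on at most 9 UMIs, which is why the intervals are wide. Tapbp, which was well above 0 in the controls, stood at 17.7, 42.2, 26.2 and 86.5 CPM.

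Rod-like cells fell into 3 clusters whose shares shifted between libraries. The cluster led by Dpp10 held 4565 cells of the young control and 620 of the young laser library, and the cluster led by Gngt1 held 143 and 2057. Within the first, heavy chains stood at 86.6, 230, 79.4 and 457 CPM. Within the second they stood at 209, 355, 113 and 680 CPM, the aged control value resting on 7 UMIs in 34 cells. The lasered library was above its control in each cluster at both ages, though the young ratio within a cluster was smaller than over the class.

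Macrophage transcripts were also more frequent in rod-like cells after laser. Their 13 markers summed to 197, 582, 78.3 and 275 CPM, all 13 with UMIs except Cd163 in the aged control. The part of this RNA in the class I result was not tested over the whole list. Without every cell that held a C1qa, C1qb, C1qc or Ptprc UMI, the heavy chain ratios in rod-like cells were 3.47 in young and 6.48 in aged mice, as large as in all cells. This filter drops whole cells and does not take macrophage RNA out of the others, so it cannot measure that part. In the young laser library it left class II chains with Cd74 at 340 CPM, against 358 CPM in all rod-like cells. Over all rod-like cells class II and class I went apart in aged mice: class II chains with Cd74 had a laser ratio of 1.73 (1.33–2.25), against 6.05 for class I. Without cells holding a C1q or Ptprc UMI these ratios were 1.42 and 6.48.

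The RPE-like cells showed the response in young mice, with 6 of 10 class I members called higher, against 4.33% of all genes. Their median log2 ratio was 1.25, against -0.040 over all genes. In aged mice 0 of 11 were called higher, against 4.47% of all genes, with a median of 0.528 against -0.018. H2-D1 stood at 33.8, 102, 33.2 and 50.5 CPM, H2-K1 at 46.2, 100, 104 and 194 CPM, and H2-T23 at 5.60, 18.4, 6.07 and 8.75 CPM. The H2-K1 level of the aged control lay close to that of the young laser library. B2m went another way, at 341, 459, 173 and 184 CPM, with ratios of 1.35 (1.25–1.46) and 1.07 (0.942–1.20). The 13 macrophage markers, all detected, summed to 176, 356, 202 and 225 CPM. Without cells holding a C1q or Ptprc UMI the heavy chain ratio was 1.66 in young and 1.68 in aged mice.

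Bipolar-like cells, the relay neurons of the inner retina, had 11 of 17 class I members called higher in aged mice, against 6.53% of all genes, with a median of 1.54 against 0.094. In young mice, where the control held 85 bipolar-like cells, it was 5 of 7, against 3.9%. H2-K1 stood at 31.2, 66.4, 24.2 and 100 CPM and H2-Q7 at 6.57, 8.10, 5.75 and 25.1 CPM. Tap1 stood at 4.93, 6.48, 0.992 and 7.32 CPM. The summed heavy chain ratio of aged bipolar-like cells was 2.83 without cells holding a C1q or Ptprc UMI and 7.16 with cells thinned to 1000 UMIs. The young ratio was 1.37 after thinning.

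In aged amacrine-like cells 4 of 7 members were called higher, against 4.92% of all genes. H2-K1 went from 40.2 to 188 CPM. B2m went from 3.35 to 55.3 CPM on 2 and 43 UMIs, and Nlrc5 from 0 to 28.3 CPM on 0 and 22 UMIs. B2m and Nlrc5 thus met the minimum of 20 UMIs over both libraries through the lasered library. Members this scarce in the control enter the count only where the lasered library is high. The 4 of 7 therefore depends in part on this minimum and cannot be read as the share of class I members that were higher. In cone-like cells Nlrc5 stood at 0, 0, 0.320 and 1.57 CPM and Tap1 at 0.548, 3.88, 0.801 and 1.26 CPM, at most 5 UMIs in any library. B2m stood at 23.6, 108, 8.81 and 21.4 CPM in cone-like cells. Of 8 class I members 2 were called higher in young cones, against 2.34% of all genes, and 3 of 12 in aged cones, against 4.0%, with 1 called lower, against 0.986%.

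**Figure D2:**
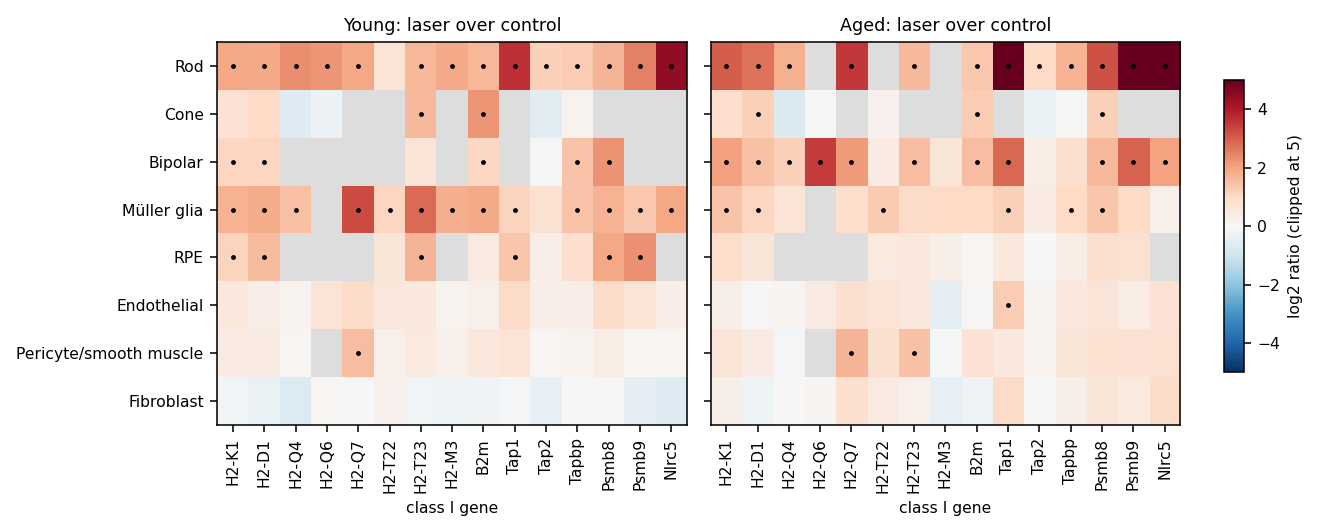
log2 ratio of laser to control for class I genes in 8 cell classes, young mice on the left and aged mice on the right, with colour clipped at 5 and black dots on called differences. Grey cells had under 20 UMIs over both libraries. Rows are cell classes and columns genes. Dots cover most of the measured rod-like row at both ages and of the Müller glia-like row in young mice, while the endothelial-like row holds 1 dot and the fibroblast-like row none. The plot shows 15 class I genes, and scarcer heavy chains such as H2-T24 are not plotted.

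The vascular and stromal classes had high class I levels and few called members. In endothelial-like cells 0 of 16 class I members were called higher in young mice and 2 of 16 in aged mice, against 3.23% and 4.98% of all genes called higher. H2-K1 stood at 772, 1104, 1195 and 1483 CPM, H2-D1 at 1168, 1455, 755 and 793 CPM, and Tap1 at 41.0, 79.7, 52.5 and 128 CPM. For Tap1 the ratio was 1.95 (1.68–2.26) in young and 2.43 (2.003–2.97) in aged mice, close to each other on both sides of the 2-fold line. Fibroblast-like cells had 0 of 16 called higher in young and 1 of 16 in aged mice, against 4.5% and 7.49%. Among leukocytes, aged monocyte-like cells had 6 of 16 called higher, against 5.0%, with Tap1 going from 63.6 to 194 CPM and Psmb9 from 67.4 to 180 CPM. Macrophage-like cells of young mice had 1 of 16 called higher, against 2.95%, and T-like cells of aged mice had 0 of 15, against 2.58%.

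Further genes of class I peptide supply were read from a list of 8 that are no members, such as the proteasome activators and the chaperones of the endoplasmic reticulum. In rod-like cells 3 of 8 were called higher in young and 3 of 7 in aged mice, against 6.72% and 5.53% of all genes, with median log2 ratios of 0.908 and 0.435, against -0.041 and 0.051 over all genes. In Müller glia-like cells 1 of 8 was called higher at each age, against 3.12% and 6.7%, with medians of 0.642 and 0.482, against -0.087 and -0.001. Psmb10, the third immunoproteasome subunit, was called higher in both classes at both ages, for example from 17.6 to 62.6 CPM in young Müller glia-like cells. Of the interferon response factors, Irf9 stood at 12.6, 44.0, 9.06 and 56.6 CPM in rod-like cells, in the order used above. Irf1 in aged rod-like cells went from 1.47 to 15.9 CPM.

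Between the ages, single class I genes differed in opposite directions. The summed heavy chains were higher in the aged control than in the young control in 2 of 8 classes and lower in 5, and after laser they were higher in 1 of 13 classes and lower in 9. The ratio of aged to young ran from 0.557 in bipolar-like (0.179 with cells thinned to 1000 UMIs) to 1.57 in RPE-like controls, and after laser from 0.496 in epithelium-like to 1.52 in rod-like cells. B2m, H2-D1 and H2-T23 were lower in the aged libraries, while H2-K1, H2-Q6, H2-Q7 and Nlrc5 were higher or level in most classes. After laser H2-Q7 was higher in 7 of 11 classes and lower in 3.

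B2m was lower in the aged library in 8 of 8 control classes and in 13 of 13 lasered classes, with median ratios of 0.476 and 0.401. H2-D1 was lower in 6 of 8 and 13 of 13 classes (medians 0.605 and 0.495), with the other 2 control intervals spanning 1. H2-T23 was lower in 4 of 6 and 13 of 13 classes (medians 0.425 and 0.345). H2-K1 was higher in 6 of 8 control classes and lower in 1, with a median of 1.33. After laser it was higher in 8 of 13 classes and lower in 4, with a median of 1.13. The direction of B2m and H2-D1 held in all of these classes when total counts were replaced by trimmed mean or median-of-ratios scaling. Under median of ratios H2-K1 turned to 0.882 in lasered dendritic-like cells, and the H2-T23 control ratio of RPE-like cells, whose interval spans 1, turned to 0.898.

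In endothelial-like cells, where counts are deepest, H2-T23 stood at 183, 264, 64.5 and 94.8 CPM. The aged to young ratio was 0.352 (0.298–0.414) in controls and 0.359 (0.318–0.405) after laser, against 7.82% and 5.66% of all genes called lower. B2m stood at 1389, 1678, 879 and 915 CPM. H2-Q6 stood at 21.2, 34.1, 97.5 and 133 CPM and H2-Q7 at 43.7, 85.0, 146 and 255 CPM, with control ratios of 4.60 (3.71–5.72) and 3.34 (2.85–3.91), against 7.07% of all genes called higher. Nlrc5 stood at 24.4, 30.4, 45.7 and 76.2 CPM. Both young libraries lay below both aged ones for H2-Q6, H2-Q7 and Nlrc5, and above both for H2-T23 and B2m.

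In leukocytes after laser, where the classes are large enough, H2-D1 and H2-T23 were again lower in the aged library. H2-K1 was lower there too in macrophage-like cells. In macrophage-like cells H2-D1 stood at 2904, 2707, 1136 and 1092 CPM, H2-T23 at 426, 372, 87.1 and 122 CPM, and H2-K1 at 1531, 1812, 1095 and 1590 CPM, the aged control resting on 43 cells. After laser the aged to young ratio was 0.403 (0.387–0.420) for H2-D1, 0.327 (0.289–0.370) for H2-T23 and 0.878 (0.846–0.911) for H2-K1. Of 16 class I members 5 were called lower, against 3.89% of all genes. In T-like cells H2-T23 stood at 344, 335, 100 and 69.4 CPM, and in dendritic-like cells Nlrc5 stood at 43.2, 49.4, 72.9 and 203 CPM. The young T-like control held 24 cells, and the young and aged dendritic-like controls held 22 and 25. Epithelium-like cells had 8 of 17 members called lower after laser, against 4.36% of all genes.

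The share of H2-K1 in the UMIs of H2-K1 and H2-D1 together, which does not depend on scaling, was higher in the aged library in 8 of 8 control classes. In 6 of them the Clopper-Pearson intervals were apart, and the median difference was 18.3 percentage points. After laser it was higher in 13 of 13 classes, 12 with intervals apart, by a median of 21.6 points. Within an age, laser moved it by a median of 0.7 points in young and 4.4 points in aged mice. In endothelial-like cells the share was 39.8%, 43.1%, 61.3% and 65.2%, in fibroblast-like cells 37.7%, 40.8%, 54.5% and 62.4%, and in macrophage-like cells 34.5% and 40.1% in the young pair and 59.3% in the aged laser library. In rod-like cells it was 33.8%, 34.4%, 58.1% and 63.3%. Cone-like cells had 41.2%, 36.9%, 48.7% and 42.7% with overlapping intervals.

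**Figure D3:**
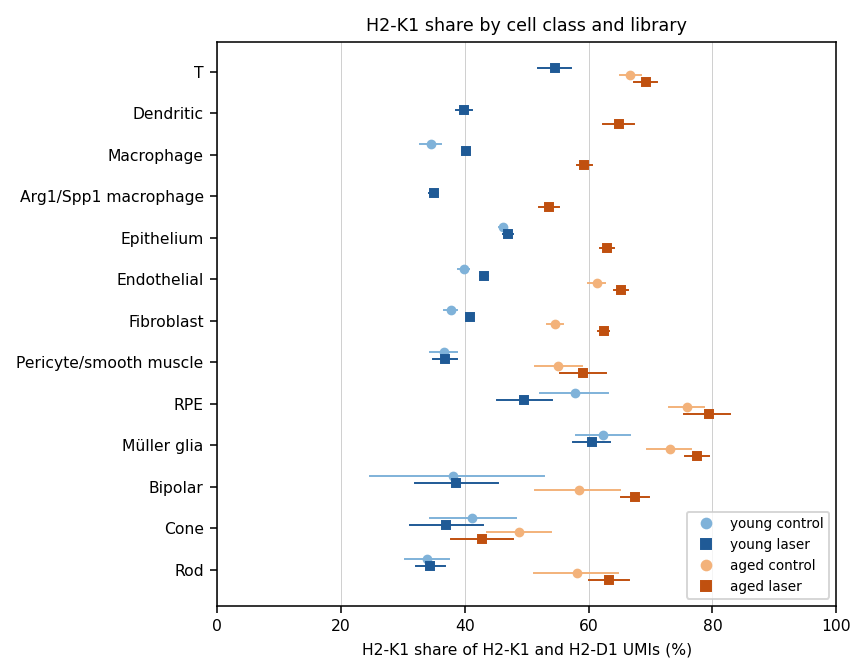
Share of H2-K1 in the summed UMIs of H2-K1 and H2-D1, in percent, by cell class with 50 or more cells in the library; bars are Clopper-Pearson 95% intervals, circles controls, squares laser, blue young, orange aged. The orange points lie to the right of the blue ones, for instance at 61.3% and 65.2% against 39.8% and 43.1% in endothelial-like cells.

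H2-K1, H2-D1, H2-Q4, H2-Q6 and H2-Q7 are near-identical in parts of their sequence, and how the authors' counting assigned reads that fit several of them is not given in the sources used here. Their separate values are uncertain for that reason, and the share of H2-K1 with them. Each age is a separate pair of libraries, so age and library preparation cannot be told apart. Ribosomal protein genes as a group were also lower in the aged library in 8 of 8 control classes (median ratio 0.614) and 13 of 13 lasered classes (0.689). H2-Ke6, the neighbour that encodes no MHC chain, was lower in 7 of 8 and 7 of 13 (0.573 and 0.669). Their relation to the lower B2m was not tested.

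Class II transcripts were abundant in dendritic-like, macrophage-like and B-like cells. The class II chains with Cd74 took 56680 CPM in dendritic-like cells of the young control, 51560 in the young laser, 24600 in the aged control and 26180 in the aged laser library. Macrophage-like cells had 23230, 21350, 11400 and 6922 CPM. The 12 to 18 B-like cells of each library had 14380, 17730, 9776 and 13960 CPM, above macrophage-like cells in the aged laser library. Unnamed leukocyte clusters reached 38500 CPM. Dendritic-like and macrophage-like cells were lower in both aged libraries than in both young ones. The median over tissue classes was 43.0, 190, 24.6 and 53.9 CPM.

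In dendritic-like cells (22, 127, 25 and 61 cells) H2-Aa stood at 10730, 10730, 5062 and 5914 CPM, H2-Ab1 at 11650, 10680, 4547 and 4644 CPM, and H2-Eb1 at 9378, 9350, 4752 and 5313 CPM. Cd74 stood at 24930, 20760, 10210 and 10240 CPM. After laser the ratio of aged to young was 0.493 (0.480–0.507) for Cd74 and 0.551 (0.531–0.572) for H2-Aa, and 3 of 10 class II members were called lower, against 5.14% of all genes. The exchange factor H2-DMa stood at 1060, 817, 416 and 395 CPM and H2-DMb1 at 1063, 807, 700 and 545 CPM. H2-Oa and H2-Ob form the modulator of that exchange and stood at 126, 141, 36.5 and 93.1 CPM and at 93.0, 92.4, 69.3 and 88.0 CPM. Ciita, the class II activator, ran the other way, at 186, 239, 365 and 520 CPM.

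In macrophage-like cells (89, 657, 43 and 292 cells) H2-Aa stood at 5577, 5107, 2489 and 1482 CPM, H2-Ab1 at 3954, 3936, 1739 and 1026 CPM, and Cd74 at 10140, 8896, 5113 and 3218 CPM. After laser the aged to young ratio was 0.290 (0.280–0.3004) for H2-Aa and 0.362 (0.353–0.370) for Cd74. Of 8 class II members 5 were called lower and 1 higher (against 3.89% and 7.42% of all genes), with a median log2 ratio of -1.49 against 0.169 over all genes. H2-Eb2, another E beta gene, was the one called higher, at 1.46, 2.73, 6.22 and 6.33 CPM on 1, 19, 2 and 15 UMIs. H2-DMa stood at 413, 395, 146 and 135 CPM. Ciita stood at 83.1, 89.8, 134 and 62.9 CPM.

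Clusters of the macrophage-like class differed widely, and the mix of clusters was not the same in the 4 libraries. The cluster led by Ms4a7 and Fcgr1 had 42610, 26190, 12110 and 11720 CPM of class II chains with Cd74. The cluster led by Cd163 and Folr2, genes of resident perivascular macrophages, had 20030, 13430, 15870 and 10300 CPM. A cluster led by Cxcl13 and Cd209d had 10 or more cells only in the aged libraries, 12 and 122 of them, at 6198 and 1918 CPM. In the first cluster aged libraries were thus lower than young ones, while in the second the aged control lay above the young laser library. Outside this class, the cluster led by Spp1 and Arg1, genes of wound macrophages, had 2459 CPM in the young laser library. In the aged control and aged laser libraries it had 1525 and 2586 CPM. With a cluster led by Hist1h1b and Mki67 it forms a separate class, named Arg1/Spp1 macrophage. That class had 6368 CPM in the young laser, 2685 in the aged control (38 cells) and 3374 in the aged laser library. Among clusters that stayed unnamed, one led by Retnla and Lyz1 had 38500 CPM in the young laser and 25330 CPM in the aged laser library, and one led by Lilra5 had 27410, 9889, 11590 and 4337 CPM.

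**Figure D4:**
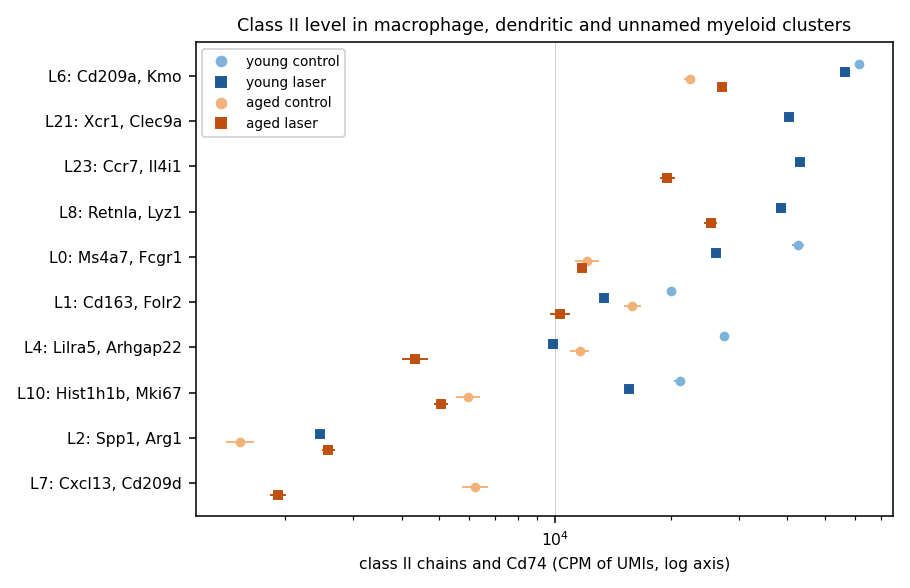
Class II chains with Cd74, in CPM on a log axis, in the myeloid clusters with 10 or more cells in a library, named by their leading genes; bars are Poisson 95% intervals and symbols as above. Dendritic clusters lie highest, at 61260 CPM for the Cd209a cluster of the young control, and the Spp1 and Arg1 cluster lies at 2459 CPM in the young laser library.

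Dendritic-like clusters were also lower in the aged libraries. The Cd209a cluster had 61260, 56270, 22310 and 27060 CPM, and the Ccr7 cluster of migratory cells had 43030 CPM in the young laser and 19540 CPM in the aged laser library. The Xcr1 cluster, cross-presenting dendritic cells, reached 10 cells only in the young laser library, at 40450 CPM. Monocyte-like cells had 3095 CPM after laser in the young, and 3754 and 5515 CPM in the aged control and laser libraries. For these the laser ratio in aged mice was 1.69 (1.51–1.90) for H2-Aa and 1.43 (1.33–1.54) for Cd74, with 0 of 6 class II members called higher, against 5.0% of all genes. Microglia-like cells, with 22, 25 and 32 cells in the young laser, aged control and aged laser libraries, had 224, 852 and 51.8 CPM. In the aged control 97.0% of their 266 class II UMIs lay in 1 of the 25 cells.

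Over all classes compared, leukocytes and erythrocyte-like cells included, the class II sum was higher after laser in 10 of 13 in young mice. It was lower in 3, the macrophage-like, erythrocyte-like and melanocyte-like cells. Melanocyte-like cells went from 356 to 147 CPM, a ratio of 0.413 that turned to 1.221 with cells thinned to 1000 UMIs. In their young control 91.55% of the class II UMIs lay in 8 of 157 cells. In aged mice the sum was higher in 8 of 10 classes and lower in 2. The aged count was 3 of 9 with cells thinned to 1000 UMIs and 4 of 8 without cells holding a C1q or Ptprc UMI. Fibroblast-like cells had 44.9, 199, 59.6 and 88.8 CPM, pericyte-like cells 28.6, 153, 24.6 and 161 CPM, and Müller glia-like cells 37.3, 146, 16.9 and 91.2 CPM. In the same libraries the macrophage markers had tissue-class medians of 74.1, 252, 62.1 and 162 CPM and moved in the same direction. The part of free macrophage RNA in the class II sums was not tested. In aged fibroblast-like cells the laser ratio of 1.49 was 0.442 without cells holding a C1q or Ptprc UMI. In aged pericyte-like cells 91.1% of the class II UMIs lay in 10 of 193 cells, and without cells holding a C1q or Ptprc UMI the laser ratio turned from 6.54 to 0.714. In aged Müller glia-like cells 83.2% lay in 17 of 333 cells, and without such cells the level was 26.1 CPM.

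**Figure D5:**
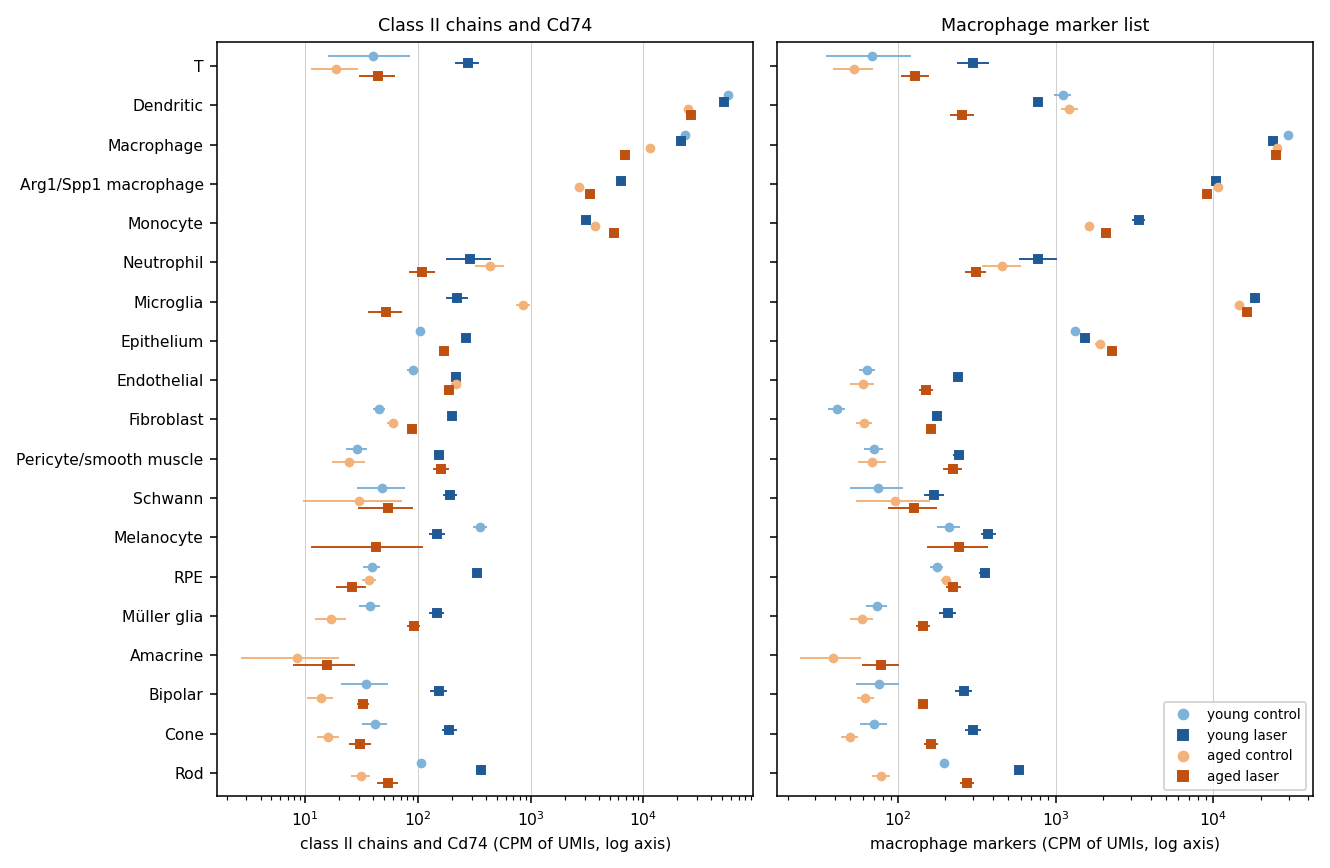
Class II chains with Cd74 (left) beside the summed macrophage markers (right) by cell class, in CPM on a log axis with Poisson 95% intervals; circles are controls, squares laser, blue young and orange aged. Tissue classes lie far below dendritic-like and macrophage-like cells on the left, with medians of 43.0, 190, 24.6 and 53.9 CPM, and the aged endothelial-like control lies apart at 216 CPM.

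In RPE-like cells the class II sum was 38.7, 334, 36.7 and 25.7 CPM, giving 8.63 (7.27–10.3) in young and 0.701 (0.506–0.954) in aged mice. With cells thinned to 1000 UMIs the ratios were 4.68 and 1.71, so the aged direction turned, and without cells holding a C1q or Ptprc UMI they were 5.69 and 1.2. H2-Ab1 stood at 7.06, 73.5, 5.14 and 5.15 CPM and Cd74 at 16.1, 133, 18.1 and 9.27 CPM. In the young laser library 55.3% of these UMIs lay in 17 of 334 cells, and 234 of the 334 cells, counting only those under 10 class II UMIs, held a C1q or Ptprc UMI. Without such cells the level was 211 CPM, against 37.1 CPM in the young control. H2-DMb1 was level in RPE-like cells, at 15.1, 18.8, 18.2 and 16.0 CPM.

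Endothelial-like cells of the aged control had the highest class II sum of the tissue classes in that library. They stood at 89.4 CPM in the young control, 215 in the young laser, 216 in the aged control and 188 in the aged laser library, where the next tissue class of the aged control, fibroblast-like cells, had 59.6 CPM. The aged to young ratio in controls was 2.41 (2.14–2.72). The mix within this class differed between the controls. Cells with a UMI of Gpihbp1, which leads 1 of its clusters, numbered 227 of 591 in the young and 56 of 415 in the aged control. They had 47.8 and 152.6 CPM of class II chains with Cd74, and cells without Gpihbp1 had 122.9 and 228.6 CPM. The part of this mix in the ratio was not tested. Among the members Cd74 stood at 30.9, 76.3, 103 and 80.0 CPM, H2-Aa at 18.4, 48.4, 39.0 and 34.7 CPM, H2-Ab1 at 28.2, 52.8, 46.5 and 43.1 CPM and H2-DMb1 at 3.72, 5.69, 13.1 and 18.3 CPM. In the control comparison 4 of 6 class II members were called higher, against 7.07% of all genes, with a median log2 ratio of 1.15 against 0.060. H2-Eb1 was one of them (2.32, 1.65–3.25), but its ratio was 0.977 when cells were assigned one by one from their own markers.

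The macrophage markers of endothelial-like cells did not follow this order: all 13 were detected and summed to 63.9, 242, 59.6 and 151 CPM. Without cells holding a C1q or Ptprc UMI the class II level was 86.9, 221, 235 and 223 CPM. Such a filter does not take macrophage RNA out of the cells it leaves. The part of that RNA in the endothelial-like class II values was not tested. Of 415 endothelial-like cells in the aged control, 18 (4.34%) held 10 or more class II UMIs, and 3 of these 18 held a C1q or Ptprc UMI. In the young laser library it was 19 of 831 cells, 16 of them with such a UMI. Of endothelial-like cells with 1000 or more UMIs, each thinned to 1000, 3.30%, 8.40%, 7.93% and 6.86% held a Cd74 UMI. Of rod-like cells treated alike, which should lack Cd74, it was 3.12%, 13%, 1.40% and 2.05%. In the young control the intervals overlap (2–5.1% and 2.61–3.69%), in the young laser library the endothelial share was the lower one, and in both aged libraries it lay above the rod share with intervals apart. Unthinned, the shares were 15.1%, 40.6%, 22.7% and 24% against 5.41%, 24.1%, 3.93% and 4.86%, with median depths of 8386, 7412, 5670 and 5737.5 UMIs against 1327, 1942.5, 3275 and 2705.

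Rod-like cells had class II sums of 106, 358, 31.1 and 53.8 CPM, among the highest tissue values in the young libraries, with Cd74 at 39.2, 131, 12.2 and 17.8 CPM. Of 6 class II members 6 were called higher in young rods after laser, against 6.72% of all genes. The macrophage markers of rod-like cells, given above, had the same order of libraries except between the young control and the aged laser library, and their part in this result was not tested. Of 5 class II regulators outside the member list, Ciita and the Rfx subunits among them, 1 was called higher in young endothelial-like cells, against 3.23% of all genes. In rod-like cells 0 of 5 were called higher in young and 0 of 4 in aged mice, against 6.72% and 5.53%.

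Some members were too scarce to compare. H2-Q1 had 3 UMIs over all libraries, H2-M9 had 22, H2-M2 had 100, H2-M5 had 139 and H2-Q2 had 152, and H2-Q1 and H2-M9 reached 20 UMIs in no comparison. H2-DMb2, H2-Oa and H2-Ob, with 876, 560 and 785 UMIs, were scarce as well, and in dendritic-like cells H2-DMb2 stood at 110, 119, 47.4 and 174 CPM.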

How the data were processed

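Single-cell 3′ transcript counts came from 4 droplet libraries of mouse retina and choroid, 1 per group. The deposited matrix holds raw UMI counts per gene and cell, made by the authors with Cell Ranger on mm10 and handled in Seurat 4.1.1, per the submitters' processing notes. Neither the Cell Ranger version nor the annotation was given in the sources used here. Cells with a doublet score of 0.2 or more were removed (Scrublet in scanpy 1.11.5). The rest were clustered on 2000 variable genes without the members, 40 components, 20 neighbours and Leiden resolution 1.0 (leidenalg 0.10.2, Python 3.11.15), with leukocyte clusters (Ptprc in 30% of cells) clustered again. A cluster took a name where 3 or more markers lay above 20 CPM and 2-fold over the other cells and the best list led by 0.5. A rule that leaves leukocyte clusters with tissue markers unnamed was added after the cluster table was seen.

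For each class in each library, UMIs were summed and divided by the class total. Levels have exact Poisson intervals, ratios exact conditional binomial intervals and shares Clopper-Pearson intervals (scipy 1.17.1). Since cells are not replicates, no p-values were computed. Poisson counts were simulated for aged Müller glia-like cells (13097 genes, aged laser comparison). Of the intervals 96.1% covered the true ratio, and 94.0% of 200 genes changed 4-fold were called, as were 0.542% of unchanged genes. Such counts follow the model of the intervals and hold no spread between cells or libraries. These shares thus check the calculation only and are no error rates of the real data. Alternatives were other scalings (edgeR 4.0.16 trimmed mean factors in R 4.3.3, and median of ratios), totals without rod genes, thinning, mean over cells, doublets kept, Leiden resolution 2.0, members allowed in clustering, cells assigned by their own markers, 20 cells a class and no minimum of UMIs. Core members are always described, and beyond them the text names up to 3 per class and comparison with the largest ratio by the nearer interval bound. Members, lists and naming thresholds were chosen with earlier results of these data known. Sequences are RefSeq promoters of GRCm38.p6, found for 27 of 33 members.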

Additional observations from a re-analysis of the deposited data

Results flagged for a closer look

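The class II chains with Cd74 differed in opposite directions between the ages in 2 tissue classes. In endothelial-like cells the ratio of laser to control was 2.405 in young and 0.8711 in aged mice, the latter 1.003 with cells thinned to 1000 UMIs and 0.9518 without cells holding a C1q or Ptprc UMI. In RPE-like cells it was 8.626 in young and 0.7008 in aged mice, but the aged ratio was 1.714 after the same thinning and 1.2 without such cells, so its direction turned under both. Each ratio rests on 1 library per group, and the difference between the ages was not tested.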

How the results depend on the processing

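No paired analysis was possible because each group is 1 library, and for the same reason no replicate could be left out. Of 824 member ratios 292 were called. After thinning to 1000 UMIs 158 of 472 were called, and without cells with a C1q or Ptprc UMI, an alternative chosen after seeing the data, 182 of 505. Over members and sums, 155 of the 184 called ratios that could be recomputed after thinning stayed past 2-fold, and 176 of 205 without those cells. These settings leave fewer UMIs and cells, and the cause of the changes below was not tested. Trimmed mean factors shifted all genes by -0.444 to 0.453 on the log2 scale and median of ratios by -0.322 to 0.502, over 0.1 in 16 and 18 of 45 class and comparison pairs. No called ratio turned under either, and higher calls made up 63.0% of calls, 57.1% and 57.3%. Under the scaling and resolution settings the 8 counts of classes with a higher sum stayed within 1.5-fold.

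Class I, age in controls, had 2 classes higher, and 1 with doublets kept, 4 of 11 with cells assigned by their own markers and 1 after thinning. Class I, age after laser, had 1, and 2 with 20 cells, with doublets kept, with members allowed in clustering and without C1q or Ptprc cells, and 3 by own markers. Class II, aged laser, had 8, and 3 of 9 after thinning and 4 of 8 without C1q or Ptprc cells. Class II, age in controls, had 2, and 1 after thinning. Class II, age after laser, had 0, and 1 with 20 cells, with doublets kept and by own markers. The share of aged control endothelial-like cells with a Cd74 UMI was 22.7%, and 7.93% after thinning.

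These called ratios turned. With doublets kept, aged laser bipolar-like Cd74 was 0.8122 and the class II sum 0.9634, the bipolar-like sum for age in controls 1.886, and young laser fibroblast-like H2-DMb1 0.9982. As a mean over cells, young laser melanocyte-like Cd74 was 1.559, H2-Aa 1.885, H2-Eb1 1.946 and the class II sum 1.847. After thinning, aged laser fibroblast-like H2-Eb1 was 0.8407 and the young laser melanocyte-like class II sum 1.221. By own markers, cone-like cells for age in controls had Cd74 at 1.765, H2-Aa 1.848, H2-Eb1 1.996 and the sum 1.84. T-like cells for age after laser had Cd74 at 1.495, H2-Aa 1.696, H2-Eb1 1.358 and the sum 1.352. Young laser melanocyte-like H2-Aa was 1.388, H2-Eb1 1.926 and the sum 1.198. Fibroblast-like H2-DMb1 was 0.9309 for age in controls and 0.8094 for young laser. H2-Eb1 was 0.3931 in aged laser cone-like, 0.9766 in age in controls endothelial-like and 0.8511 in aged laser fibroblast-like cells, and young laser cone-like H2-T23 was 0.952. Without C1q or Ptprc cells, young laser melanocyte-like Cd74 was 4.473, H2-Aa 1.978 and the sum 3.983, aged laser fibroblast-like H2-Eb1 0.5113, and the aged laser pericyte-like class II sum 0.7137. With 20 to 43 cells in some control classes, small ratios were not detectable at this depth.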

Other observations

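H2-Q10, a secreted class I chain, had 440 UMIs in all libraries. Neutrophil-like cells held it at 184 CPM in the young laser library, 264 in the aged control and 99.5 in the aged laser library, from 14, 33 and 65 UMIs. H2-M2, another nonclassical chain, was seen in dendritic-like cells of the lasered libraries, at 16.0 CPM in young and 10.2 CPM in aged mice, and at 0 in both controls, whose dendritic-like classes held 22 and 25 cells.

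The natural killer-like cells numbered 6, 14, 6 and 3 in the 4 libraries. In the 14 cells of the young laser library H2-K1 stood at 2634 CPM (2309 to 2991), H2-D1 at 2045 CPM (1760 to 2363) and H2-Q7 at 778 CPM (606 to 983). T-like cells of the same library had H2-Q7 at 804 CPM, against 90.9 CPM in macrophage-like cells and 9.62 CPM in fibroblast-like cells.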
